A study of Mus musculus with 4 samples.

Results

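The loci described here are those of 9 ETS transcription factor genes used by blood cells, Spi1 (which encodes PU.1), Spib, Fli1, Erg, Ets1, Ets2, Etv6, Elf1 and Gabpa. Their accessible regions were taken from ATAC-seq, an assay in which a transposase cuts and tags open chromatin. A region was included when a peak overlapped the annotated body of one of these genes or the 50 kb on either side of it. This gave 103 of the 45475 regions in which a peak was called in either genotype, from 76 of 37887 WT peaks and 84 of 37615 KO peaks. 1 region between Fli1 and Ets1 fell within reach of both genes.

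Hematopoietic stem cells were sorted from the bone marrow of adult C57BL/6 mice, 5000 cells per reaction, as lineage-negative, Sca-1 and c-Kit positive cells that were CD150+CD34-CD48- by the labels. The WT mice carried floxed Med23 alleles and no cre. The KO mice carried the same floxed alleles and Mx1-cre, whose promoter answers to interferon and was switched on with poly(I:C), so that deletion was neither restricted to stem cells nor present from birth. In the study's blood counts both WT and KO mice had been given poly(I:C), and its ATAC-seq methods do not name the treatment of either. Med23 encodes a subunit of Mediator, the complex that links transcription factors at enhancers to RNA polymerase II. There were 2 samples of each genotype, but their labels point to a shared list of peaks per genotype, so 1 WT list was compared with 1 KO list. No value below could be set against a spread between replicates and no p-value is given.

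ETS factors share a winged helix domain that reads a GGAA core, and neighbouring bases divide them into classes. PU.1 and its relative Spi-B prefer purine-rich sequence before the core, and PU.1 dosage is known to steer progenitors between myeloid and lymphoid fates. Fli1 and Erg are close relatives that occupy stem cell enhancers together with Runx1, Gata2 and Scl, Etv6 is a repressor needed by adult stem cells, and Gabpa is a widely expressed activator of housekeeping promoters. PU.1 binds the upstream regulatory element of its own gene, and several ETS genes are likewise controlled by enhancers that carry ETS sites.

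8 stretches of 200 bases around summits are shown because the comparison turns on them: the Spi1 upstream regulatory element and its neighbour called in WT only, the intronic enhancers of Fli1 and Erg, the strongest distal Fli1 region, and the regions of Fli1 and Etv6 with large differences. Sequences are from the plus strand of GRCm38.p6, and capitals mark the ETS core on either strand, GGAA or TTCC. Each name gives the gene and the distance of the region from its main annotated start, negative when upstream.
Spi1 −13 kb (chr2:91082953-91083152): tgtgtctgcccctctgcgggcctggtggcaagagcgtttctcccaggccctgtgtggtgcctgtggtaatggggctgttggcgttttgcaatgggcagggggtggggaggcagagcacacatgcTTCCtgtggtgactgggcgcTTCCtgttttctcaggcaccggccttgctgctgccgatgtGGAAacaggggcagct
Spi1 −17.5 kb (chr2:91078531-91078730): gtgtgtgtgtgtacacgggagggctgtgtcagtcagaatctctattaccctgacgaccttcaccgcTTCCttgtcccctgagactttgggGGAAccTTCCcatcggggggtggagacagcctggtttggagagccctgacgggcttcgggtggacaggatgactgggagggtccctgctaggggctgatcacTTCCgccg
Fli1 +11.8 kb (chr9:32529689-32529888): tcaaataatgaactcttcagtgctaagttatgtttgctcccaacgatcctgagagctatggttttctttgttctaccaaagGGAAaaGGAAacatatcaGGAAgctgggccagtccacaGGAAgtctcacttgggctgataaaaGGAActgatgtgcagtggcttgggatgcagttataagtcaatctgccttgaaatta
Erg +91.0 kb (chr16:95439222-95439421): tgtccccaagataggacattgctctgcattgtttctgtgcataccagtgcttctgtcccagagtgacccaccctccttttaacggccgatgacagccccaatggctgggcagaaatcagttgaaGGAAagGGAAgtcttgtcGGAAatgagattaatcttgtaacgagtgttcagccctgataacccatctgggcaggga
Fli1 −14.9 kb (chr9:32556445-32556644): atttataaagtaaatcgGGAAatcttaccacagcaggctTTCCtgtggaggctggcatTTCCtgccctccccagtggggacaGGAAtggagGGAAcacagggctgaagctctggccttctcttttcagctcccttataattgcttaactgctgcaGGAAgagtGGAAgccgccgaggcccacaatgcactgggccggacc
Fli1 +150.4 kb (chr9:32391137-32391336): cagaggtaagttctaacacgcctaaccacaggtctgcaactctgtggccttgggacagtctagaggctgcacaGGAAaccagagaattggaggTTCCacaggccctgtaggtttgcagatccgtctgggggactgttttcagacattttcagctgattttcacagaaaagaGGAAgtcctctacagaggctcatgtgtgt
Etv6 +116.5 kb (chr6:134152067-134152266): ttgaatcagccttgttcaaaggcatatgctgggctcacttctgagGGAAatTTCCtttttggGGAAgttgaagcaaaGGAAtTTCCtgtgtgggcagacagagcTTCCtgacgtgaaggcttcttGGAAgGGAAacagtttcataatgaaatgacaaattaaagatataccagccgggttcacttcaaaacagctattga
Etv6 +80.1 kb (chr6:134115681-134115880): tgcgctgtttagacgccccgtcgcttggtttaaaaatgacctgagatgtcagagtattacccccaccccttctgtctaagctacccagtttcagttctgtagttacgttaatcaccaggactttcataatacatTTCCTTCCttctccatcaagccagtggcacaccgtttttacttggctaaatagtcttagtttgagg
None of these windows overlapped an annotated exon. The Etv6 +116.5 kb window held 8 cores and the Fli1 −14.9 kb window held 7, against 3 in the Spi1 upstream regulatory element and 2 in the Etv6 +80.1 kb window. The Fli1 +150.4 kb and Erg +91.0 kb windows held 3 each, Spi1 −17.5 kb held 4 and Fli1 +11.8 kb held 5. Whether the number of cores goes with the difference between genotypes was not tested.

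The measure of accessibility was the summit pileup, the number of reads or fragments stacked at the summit of a peak, which was recovered from the fold enrichment and −log10 p that the authors deposited for each peak. Which of these it counts, and how far reads were extended, is not given in the sources used here, and the intervals below take each as 1 independent count. The ratio of KO to WT pileup, each over the background of its own list, is given on the log2 scale relative to the median of all 29460 regions shared by the lists. That median was itself 0.16 above equality, or 1.12-fold. Intervals are exact 95% binomial intervals of the pileups and cover counting error only. A ratio past 1.5-fold in either direction is called higher or lower.

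Of 10 stem cell markers, 6 had a peak at a start site in each list (5 at the main start, without Gata2, a share near the 54.4% of all protein-coding genes), among them Kit, Mecom, Hlf and Meis1, while Ly6a, Slamf1, Procr and Hoxb5 had none. Of 6 granulocyte and monocyte markers, 2 had a start peak in WT, at pileups of 11 for S100a8 and 9 for Ltf, and 0 had one in KO, and Elane, Ly6g, Csf1r and Cd68 had none in either. In each list 1 of 4 B cell markers had a start peak (Ebf1), as did 1 of 3 endothelial and stromal markers (Pdgfrb), and 0 of 4 T cell markers did. The part of other cell types in the differences below was not tested. The start of Med23 itself had pileups of 64 (WT) and 85 (KO), which check nothing about the deleted exons, whose position is not given in the sources used here.

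**Figure D1:**
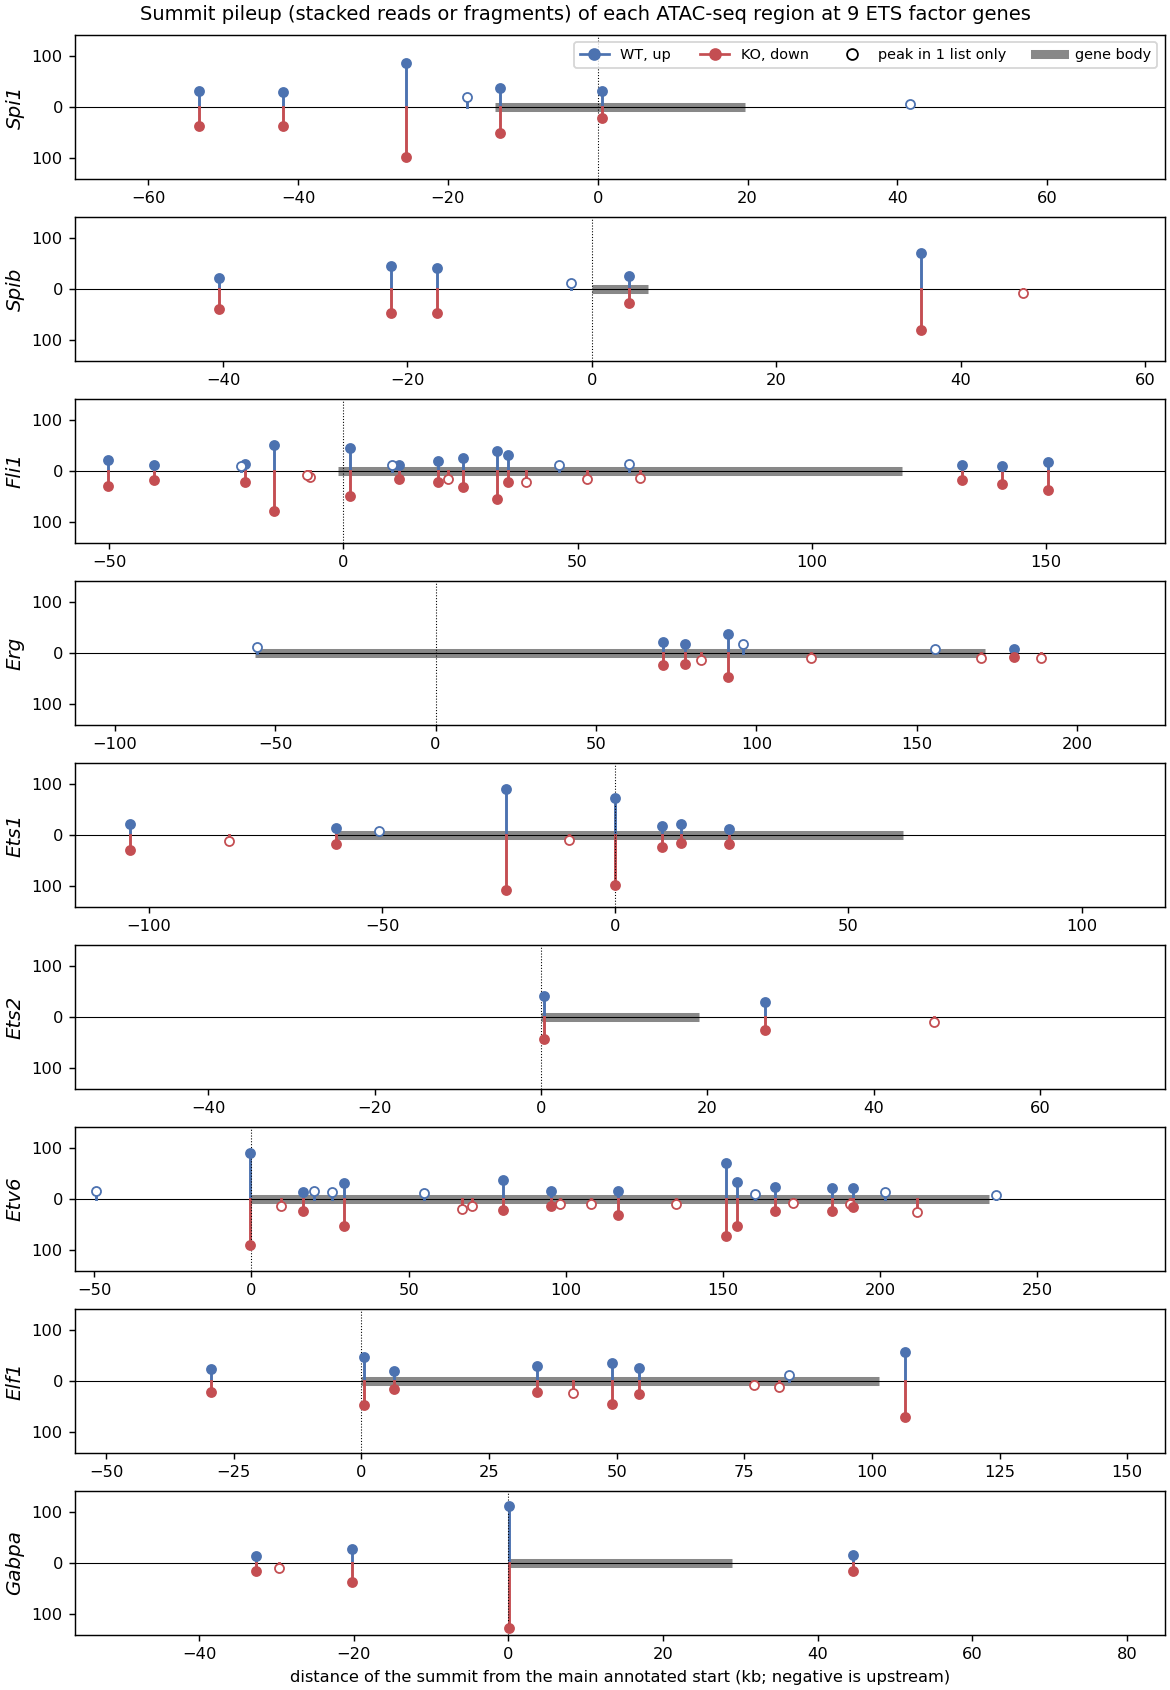
Summit pileup (stacked reads or fragments) of every region at the 9 genes (WT drawn upward, KO downward) against its distance in kb from the main annotated start. Filled points are regions with a peak in both lists, open points regions with a peak in 1 list, and the grey bar is the gene body. The tallest regions, such as the Gabpa start at 111 and 126, were in both lists, and the open points stayed at 26 or below.

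At these 9 genes the regions with the highest pileups were open in both genotypes, and most regions in 1 list had pileups at or under the median of that list (18 for WT, 19 for KO). Above it were 1 of the WT-only regions, Spi1 −17.5 kb at 20, and 3 of the KO-only regions, Etv6 211.8 kb at 26, Elf1 41.4 kb at 23 and Fli1 38.9 kb at 22. Of the 103 regions, 57 (55.3%) were shared, 19 (18.4%) had a WT peak only and 27 (26.2%) a KO peak only. Over all 45475 regions 64.8% were shared, 18.1% were WT only and 17.2% KO only, so the WT share was near the background and the KO share above it. The regions in 1 list had a median pileup of 11 in WT, from 6 to 20, and of 10 in KO, from 7 to 26. Over all regions in 1 list these medians were 10 in WT and 11 in KO, so low pileups there are not particular to these loci. The shared regions had medians of 25 and 27, against 22 and 23 over all shared regions. At a −log10 q of at least 10, 0 of the WT-only regions and 2 of the KO-only regions remained. The shares of all regions in 1 list above the list median or at this q were not counted. Only 21 of the 103 regions (20.4%) lay within 1 kb of a start site, against 32.8% of all regions, and 59 lay in introns, 16 between genes and 7 in exons. Start site regions made up 43.4% of all shared regions, so they were shared more often than others. The shares of shared, WT-only and KO-only regions above were not matched for this.

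The pileup in the shared regions leaned towards KO. The median ratio over the 57 was 0.19 (1.14-fold), with quartiles of −0.06 and 0.39, where all shared regions had quartiles of −0.27 and 0.26. 38 of 57 lay above the median of all shared regions, a level that 50% of all shared regions exceed. 6 of 57 (10.5%) were at least 1.5-fold higher in KO, against 7.58% of all shared regions, and 2 of 57 (3.51%) at least 1.5-fold lower, against 7.91%. By the authors' fold enrichment 4 of these 8 calls held. 6 of the 57 intervals did not include 0, and over all shared regions this held for 3.39% of the intervals. The regions of Fli1 carried much of this, since without them the median was 0.09 and 26 of 44 regions lay above the median of all.

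Where the regions lay moved with this ratio. Over all shared regions the median was −0.08 at start sites and 0.05 away from them, and at the ETS genes it was 0.09 over 17 start site regions and 0.22 over 40 others. 10 of 17 and 28 of 40 were above the overall median, which 43.4% of all start site regions and 55.0% of all others exceed. The authors' own fold enrichment was higher in KO in 50 of the 57, with medians of 6.48 in WT and 8.42 in KO. It was also higher over all shared regions, at 7.18 and 8.39. The share of all shared regions with a higher value in KO was not counted, so the 50 of 57 has no background and is not read as a trait of these loci.

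**Figure D2:**
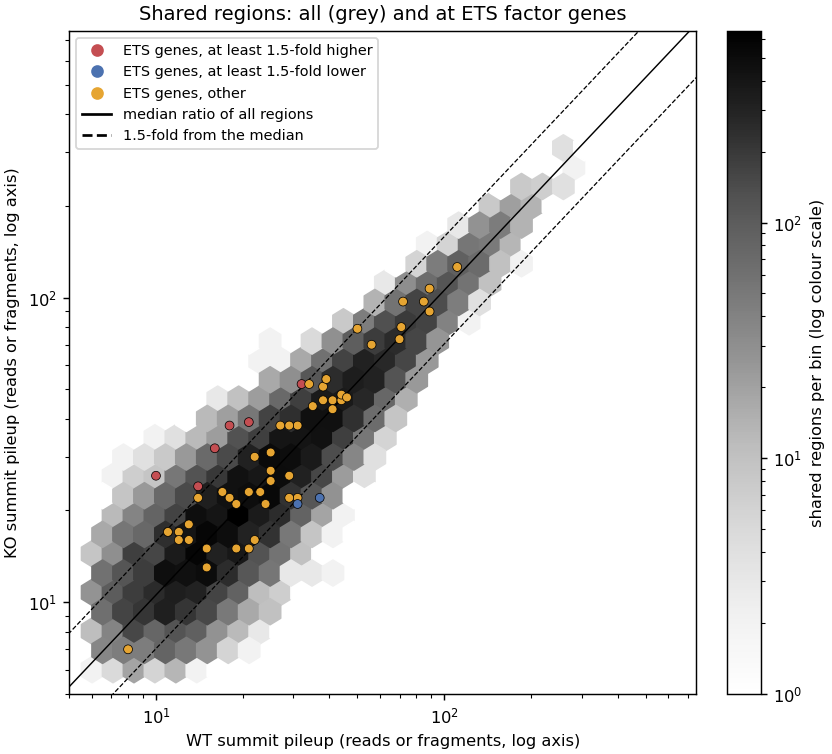
KO against WT summit pileup (stacked reads or fragments), both on log axes, for all shared regions (grey, shaded by number) and for the 57 at ETS genes (coloured points). The solid line is the median ratio of all shared regions and the dashed lines lie 1.5-fold from it. The 6 red points above the upper line have WT pileups of 10 to 32, and the points above a pileup of 60 stay between the lines.

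Spi1 held 7 regions, 5 shared and 2 in WT only. At the upstream regulatory element, at −13 kb (chromosome 2, 91082371 to 91083649, inside an intron of a longer Spi1 transcript), the pileup went from 38 (WT) to 51 (KO). The ratio was 0.35 (−0.29 to 0.99), so the element was open in both lists and the interval included no difference. Its fold enrichment was 7.39 in WT and 11.2 in KO, and its width 1190 and 1262 bp. At the Spi1 start the WT summit lay 0.6 kb and the KO summit 1.1 kb into the gene, 504 bp apart, so different positions of 1 region are compared. The WT pileup of 31 stood against 22 for KO, a ratio of −0.57 (−1.43 to 0.26), just short of the 1.5-fold level. This start was thus among 7 of the 57 shared regions whose fold enrichment was not higher in KO (6.64 and 6.57), and its width went from 1247 bp (WT) to 744 bp (KO). The interval again included 0, so the opposite directions of element and start cannot be told from counting error at this depth.

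Further upstream, the region at −17.5 kb (91078378 to 91078820, between genes) was in the WT list only, with a pileup of 20 and a fold enrichment of 4.40. A pileup of 11 was enough for a call in KO at a similar background, and none was made there. All 19 WT-only and all 27 KO-only regions of the 9 genes reached such a level, so reaching it sets none of them apart. The pileup of the other genotype at these regions is not known. The −17.5 kb region was the strongest WT-only region of all 9 genes. The other WT-only region, in an exon of Madd at 41.7 kb, had a pileup of 6, which is the smallest called in either list. Beyond these lay the start of Slc39a13, a zinc transporter gene, at −25.6 kb (85 and 97), the start of the proteasome gene Psmc3 at −42.0 kb (29 and 38) and an exon of Rapsn at −53.2 kb (31 and 38), with ratios of 0.11, 0.31 and 0.22.

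In covered bases Spi1 had the largest difference of the 9 genes under the main rule. WT peaks covered 6453 bp of its window and KO peaks 4420 bp, a difference of −2033 bp, of which 1225 bp came from narrower KO peaks in shared regions and 808 bp from the WT-only regions. Over all 18861 protein-coding genes with a peak in either list the middle 95% of differences ran from −1680.5 to 1574.5 bp, and of the 9 genes only Spi1 lay outside it. This standing depended on the settings, since the Spi1 difference was −874 bp with a window of 10 kb, where Etv6 differed by 1686 bp. It was −1225 bp at a −log10 q of at least 10, where Etv6 differed by 2152 bp and Fli1 by 1457 bp, and −1668 bp at a −log10 q of at least 5, where Fli1 differed by 1840 bp. In ratio, 0.68, it did not reach 1.5-fold fewer bases, a level passed by 8.44% of the genes with peaks in both lists, and 0 of the 9 genes reached 1.5-fold more, which 5.41% passed. 4 of the 5 shared Spi1 regions were narrower in KO, as were 31 of the 57 at all 9 genes. Shared peaks of the whole lists leaned slightly the same way, with medians of 718 bp for KO against 731 bp for WT. The share of all shared regions that were narrower in KO was not counted, so these 2 counts have no background. The Spi1 window had fewer covered bases in KO beside summits that were higher in 4 of 5 shared regions. Of these 4 only the upstream regulatory element lies in Spi1 itself, and the others lie at Rapsn, Psmc3 and Slc39a13. Of the −2033 bp, −874 bp lay in the gene body and the 10 kb on either side of it. The rest, the larger part, lay at the neighbours Psmc3, Rapsn, Slc39a13 and Madd. At the Psmc3 start the peak width went from 1330 bp (WT) to 763 bp (KO).

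Of the other genes, Gabpa had 798 bp more in KO (3066 to 3864), Etv6 551 bp (11038 to 11589), Spib 488 bp (3874 to 4362), Erg 322 bp (4836 to 5158), Ets1 214 bp (5708 to 5922) and Elf1 177 bp (7936 to 8113). Fli1 differed by −74 bp (13256 to 13182) and Ets2 by −24 bp (1745 to 1721). Thus 6 of 9 genes had more covered bases in KO, where 48.2% of genes did, and the 9 windows summed to 57912 bp for WT and 58331 bp for KO. The sign of these differences changed with the window, the cut on q or the number of peaks kept for 6 of the 9 genes (Spib, Fli1, Erg, Ets1, Etv6 and Elf1), and held under each of these settings for Spi1, Ets2 and Gabpa.

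**Figure D3:**
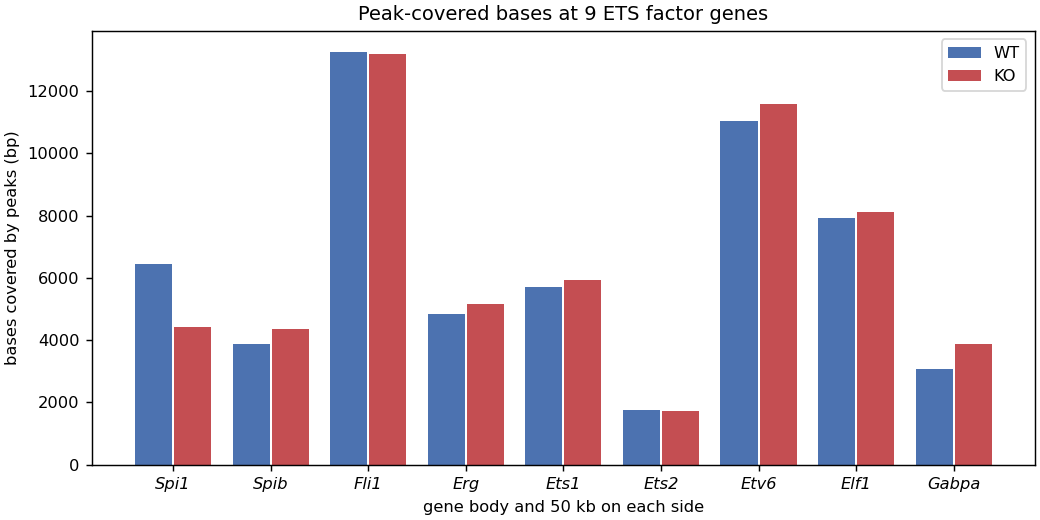
Bases covered by peaks (bp) in the gene body and 50 kb on each side for each of the 9 genes, WT in blue and KO in red. With this window and all peaks, Spi1 has the largest difference, 6453 bp for WT against 4420 bp for KO, and Fli1 and Ets2 are nearly level, which changes with other windows and cuts on q.

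At their own start sites 7 of the 9 genes had a peak within 500 bp of the main start in both lists, as did 54.4% of protein-coding genes. Gabpa, which shares its start with the ATP synthase subunit gene Atp5j, had pileups of 111 in WT and 126 in KO and a ratio of 0.10 (−0.27 to 0.49). Ets1, an activator used by T and NK cells, had 72 and 97, a ratio of 0.35 (−0.10 to 0.81). Etv6 had 89 and 90, a ratio of −0.06 (−0.50 to 0.38). Elf1, whose start faces that of Wbp4, had 46 and 47 at its main start and 29 and 22 at a second start at 34.4 kb, with ratios of −0.05 and −0.48. The summit nearest the Fli1 start lay 1.4 kb inside the gene, in a region broad enough to reach the start, with 44 and 48. Ets2 had 41 and 43, a ratio of −0.01 (−0.66 to 0.64). All these start site intervals included 0.

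Spib and Erg had no peak at the main start in either list. Spib, a B cell and plasmacytoid dendritic cell factor, had its nearest shared region in an exon at 4.0 kb (25 and 27, ratio 0.03) and a WT-only peak of 11 at −2.3 kb, in an exon of the neighbouring polymerase gene Pold1. The Spib window held mostly the starts of other genes, namely Emc10 with Fam71e1 (71 and 80), Pold1 (41 and 46), Nr1h2 (44 and 46) and Napsa (21 and 39). Of these only Napsa, an aspartic protease gene at −40.4 kb, was called higher, with a ratio of 0.82 (0.01 to 1.65), though 0.40 by fold enrichment. The sole KO-only peak, at 46.7 kb, had a pileup of 7.

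Fli1 was the most densely covered locus, with 13 shared, 4 WT-only and 6 KO-only regions. 12 of its 13 shared regions lay above the median of all shared regions, and its median pileup ratio, 0.39, was the highest of the 9 genes. With the authors' fold enrichment, relative to its own overall median, the Fli1 median was 0.16, below those of Spi1 (0.35), Ets1 (0.31), Gabpa (0.29), Spib (0.27) and Erg (0.21). Summed over the 13 summits the pileups came to 307 for WT and 420 for KO. The highest ratios were at the far downstream end, beyond the last exon. At 140.7 kb (32400461 to 32401583 on chromosome 9, between genes) the WT pileup of 10 stood against 26 for KO, a ratio of 1.30 (0.20 to 2.52) or 2.46-fold, and 0.61 by fold enrichment. At 150.4 kb (32390784 to 32391508, in an intron of the potassium channel gene Kcnj1) it was 18 and 38, a ratio of 1.00 (0.16 to 1.90), though 0.45 by fold enrichment. The third region of this stretch, at 132.2 kb, had 12 and 17 and a ratio of 0.42 (−0.73 to 1.62). The peak lists do not tie a region to the gene it acts on.

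Upstream of Fli1 the strongest distal region, at −14.9 kb (32555411 to 32556665), had a pileup of 50 for WT and 79 for KO. Its ratio of 0.58 (0.05 to 1.12) fell just under the 1.5-fold level, with an interval above 0, and its peak narrowed from 1247 bp (WT) to 848 bp (KO). The smaller regions at −21.1 kb (14 and 22) and −40.5 kb (11 and 17) had like ratios of 0.57 and 0.55, with intervals that included 0. Within the gene the region at 35.2 kb went the other way, with 31 and 21 and a ratio of −0.64 (−1.51 to 0.21), or −0.54 and so not called by fold enrichment. At 32.7 kb, the start of the noncoding Gm27201, the pileup was 39 and 54 (ratio 0.39). The strongest regions in 1 list were at 61.0 kb in WT (13) and at 38.9 kb in KO (22).

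The intronic enhancers of Fli1 and Erg, which are known to be active in stem cells, were open in both lists. The Fli1 element at 11.8 kb had pileups of 12 and 16, a ratio of 0.34 (−0.83 to 1.55). The Erg element, 91.0 kb from the main start and 85.3 kb from the next annotated one, had 38 and 46, a ratio of 0.20 (−0.45 to 0.86). Neither differed beyond counting error. The stretches of 42 bases that hold 3 of their cores are aligned here, with the cores in capitals.
Fli1 +11.8 kb (chr9:32529760-32529801): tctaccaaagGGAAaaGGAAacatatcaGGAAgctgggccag
Erg +91.0 kb (chr16:95439336-95439377): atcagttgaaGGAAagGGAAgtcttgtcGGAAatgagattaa
In both, the starts of the 3 cores on the plus strand are 6 and then 12 bases apart, which fixes 12 of the 42 positions. Of the other 30 positions 6 are identical, so beyond the cores and their spacing the count gives no sign of likeness. This spacing was noticed after the sequences had been read. Within 200 bp around the summit it occurred on either strand in 15 of the 45475 regions (0.033%), and 2 of those were these.

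Erg was otherwise sparse, with 4 shared, 3 WT-only and 4 KO-only regions and a highest pileup of 38 in WT and 46 in KO. A cluster of its annotated starts at 71.0 kb had 21 and 23 (ratio 0.05), and the intronic region at 77.8 kb had 18 and 22 (ratio 0.21). The most distant start, at −55.5 kb, had a peak of 11 in WT and none in KO, where 7 was enough for a call. The strongest WT-only region was intronic at 95.7 kb (18) and the strongest KO-only region intronic at 82.7 kb (14). The weakest shared region of the 9 genes was at 180.2 kb, with 8 and 7.

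Ets1 had 7 shared regions, 1 WT-only and 2 KO-only. The intronic region at −23.4 kb (32672014 to 32673011 on chromosome 9) had 89 and 107, a ratio of 0.19 (−0.23 to 0.61), and was the strongest region away from a start site at any of the 9 genes. 6 of the 7 shared Ets1 regions lay above the median of all, with a median of 0.36. They included the region at −104.0 kb that also counts for Fli1 (22 and 30) and the intronic one at 10.0 kb (17 and 23). The exception was at 14 kb, with 21 and 15 and a ratio of −0.56 (−1.62 to 0.46). Its regions in 1 list had pileups of 8 in WT and up to 11 in KO. Ets2, its nearest relative, had only 1 further shared region, between genes at 26.9 kb, with 29 and 26 and a ratio of −0.24 (−1.06 to 0.58), and a KO-only peak of 9.

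Etv6 held 27 regions, 24 of them centred in the gene body, and its shared regions went both ways. 5 of 11 lay above the median of all and 6 below, and the gene median was −0.02. Called higher were the intronic regions at 116.5 kb (134151924 to 134152807 on chromosome 6) with 16 and 32, a ratio of 0.92 (0.01 to 1.89), at 16.3 kb with 14 and 24, a ratio of 0.70 (−0.31 to 1.76), and at 29.5 kb with 32 and 52, a ratio of 0.62 (−0.04 to 1.31). The last had 0.47 by fold enrichment and was not called by it. Called lower was the intronic region at 80.1 kb (134115195 to 134116088), with 37 in WT and 22 in KO and a ratio of −0.83 (−1.66 to −0.03). It was the only shared region of the 9 genes whose whole interval lay below 0. The strongest distal regions, at 151.0 kb (70 and 73) and 154.3 kb (34 and 52), had ratios of −0.02 and 0.53.

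Etv6 also had the strongest region that was in 1 list. At 211.8 kb (134247420 to 134247790, with the summit in an intron) a KO peak had a pileup of 26, a fold enrichment of 8.44 and a −log10 q of 16.9. No WT peak was called there, although a pileup of 8 was enough for a call at a similar WT background. The next, an intronic KO-only region of Elf1 at 41.4 kb (79521587 to 79522978 on chromosome 14), had 23, a fold enrichment of 7.10 and a −log10 q of 13, where 9 was enough in WT. 3 of the 27 KO-only regions and 1 of the 19 WT-only regions had at least 2 times the pileup that was callable in the other list, where 32.6% of all KO-only and 23.8% of all WT-only regions did. The strongest WT-only regions of Etv6 lay at −49.4 and 19.8 kb, both at 15.

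Elf1, an activator present through the blood lineages, leaned the other way. 5 of its 7 shared regions lay below the median of all, and its median was −0.08. Its strongest distal regions, at 49.1 kb (35 and 44), 54.3 kb (25 and 25) and 6.4 kb (19 and 15), had ratios of 0.25, −0.08 and −0.42. The starts of its neighbours Sugt1 at 106.5 kb (56 and 70) and Kbtbd6 at −29.4 kb (24 and 21) had ratios of 0.24 and −0.27. The WT-only region at 83.7 kb had a pileup of 11. At Gabpa the distal regions were in introns of the neighbouring junctional adhesion gene Jam2, at −20.2 kb (27 and 38, ratio 0.42) and −32.6 kb (13 and 16, ratio 0.22), and between genes at 44.5 kb (15 and 15, ratio −0.08). Its KO-only region at −29.7 kb had a pileup of 10. The order of the medians of the pileup ratio, from Fli1 at 0.39 and Ets1 at 0.36 through Spi1 (0.22), Gabpa (0.16), Erg (0.13), Spib (0.09), Etv6 (−0.02) and Elf1 (−0.08) to Ets2 (−0.12), rests on 2 to 13 regions a gene, neighbours in it lie within the spread of their regions, and it is not the order by fold enrichment.

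**Figure D4:**
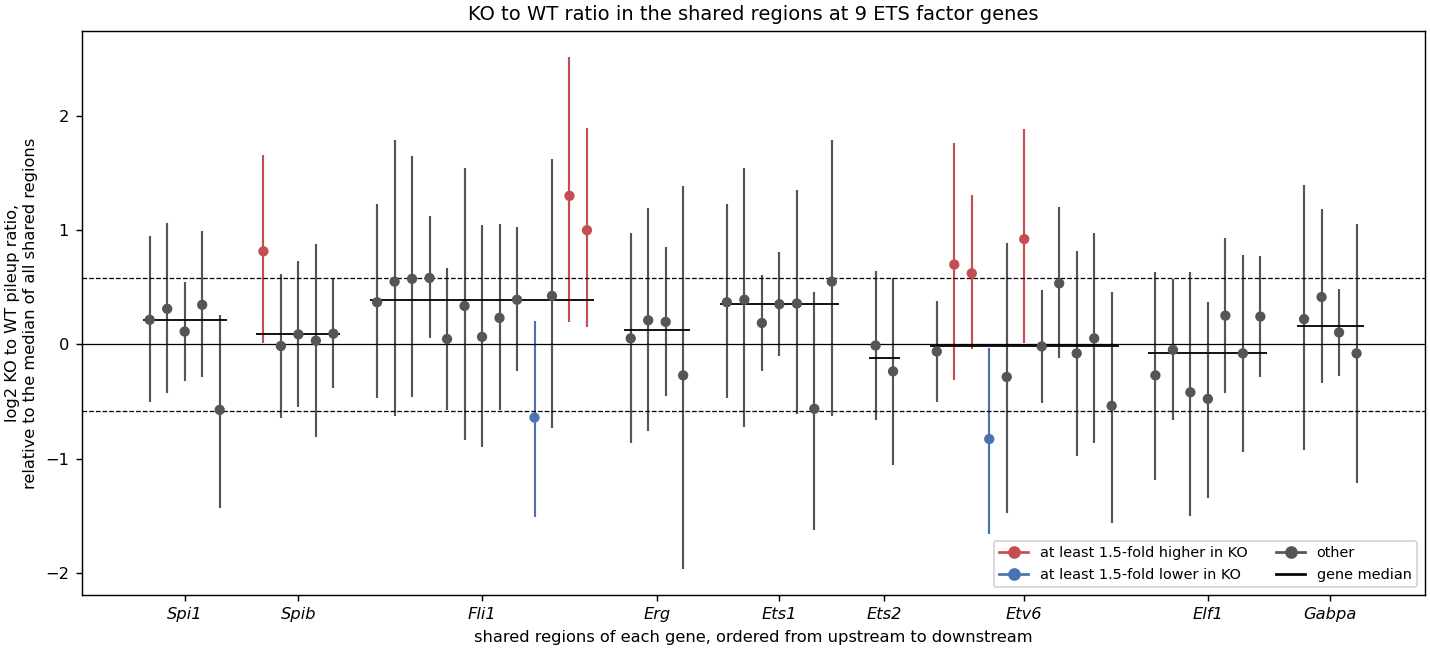
Log2 KO to WT pileup ratio, relative to the median of all shared regions, of each shared region at the 9 genes, ordered from upstream to downstream within a gene. Points have 95% binomial intervals from the pileups, short black lines are gene medians and dashed lines mark 1.5-fold. Most intervals cross 0, and 12 of the 13 Fli1 points lie above it.

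In 200 bp around the summit, only the RUNX motif had a share at these loci whose interval left out the share over all regions. The core GGAA, on either strand within 200 bp around the summit, was in 98 of 103 regions (95.1%) and in 91.9% of all regions. The PU.1 type motif GAGGAAGT was in 7 (6.80%, exact binomial interval 2.78 to 13.5%) against 6.72%, and the composite ETS and IRF motif GGAANNGAA in 11 (10.7%, 5.45 to 18.3%) against 6.76%. In the other windows the interval of this composite motif lay above the overall share, with 20.4% (13.1 to 29.5%) against 12.4% in 400 bp and 7.77% (3.41 to 14.7%) against 3.36% in 100 bp. Both hold the core, and GGAANNGAA can overlap the IRF motif GAAANNGAA, found in 9.71% against 8.12%. The motif CCGGAAG of GABP and Ets1 type factors was in 2 (1.94%) against 5.40%, both at start sites. RUNX sites (TGTGGTT) were in 3 regions (2.91%, 0.605 to 8.28%) against 9.42%. In 400 bp their share was 8.74% against 13.6% and in 100 bp 1.94% against 5.73%, with intervals that included the overall share. The motif AGATAA of GATA factors was in 6.80% against 8.81% of regions. The AP-1 motif TGANTCA was in 4.85% against 8.11%, the C/EBP motif TTGCNNCAA in 1.94% against 1.52% and the E-box CAGNTG in 36.9% against 39.7%. In 400 bp the AP-1 share was 5.83% (2.17 to 12.2%) against 12.7%, an interval below the overall share. Start sites held 20.4% of these regions and 32.8% of all, and the shares against all regions were not matched for this. Away from start sites the core was in 95.1% against 94.4% and GAGGAAGT in 6.1% against 8.52%. At start sites GAGGAAGT was in 9.52% against 3.02%.

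**Figure D5:**
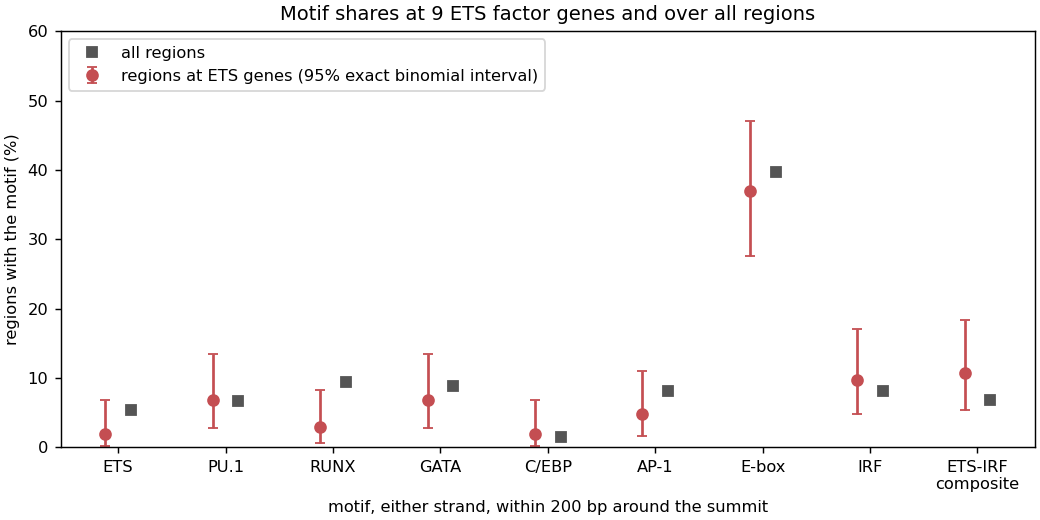
Share of regions (%) with each motif on either strand within 200 bp around the summit, for the 103 regions at ETS genes (red, with 95% exact binomial intervals) and for all 45475 regions (grey squares). The RUNX share, 2.91% against 9.42%, is the one whose interval lies below the overall share.

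The 7 regions with GAGGAAGT were 3 at Fli1, 3 of the 5 at Gabpa, among them its start, and 1 at Etv6. 6 of the 7 were shared, and these 6 had ratios above the median of all, which 60.2% of all shared regions with the motif exceed. They came from Fli1 and Gabpa, where 15 of 17 shared regions lay above that median with or without the motif. Their ratios ran from 0.10 at the Gabpa start to 1.00 at Fli1 150.4 kb. In the latter window, printed above, the motif stands near the 3′ end. The 8 letters were absent from the windows of both Spi1 upstream regions.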

How the data were processed

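ATAC-seq libraries of 2 WT and 2 KO samples gave 1 peak list per genotype. By the submitters' processing notes and the study's methods, reads were trimmed (trim_galore) and aligned (Bowtie2, mm10), Picard served to drop duplicate and mitochondrial reads, and MACS2 called peaks without a fragment model. Tool versions, read extension and whether samples were pooled are not given in the sources used here. Each deposited list holds for every peak the fold enrichment over local background at its summit, a ratio made by the authors, their −log10 p and −log10 q, and a display score made from the −log10 q by the authors' caller, which was not used. The lists hold no read totals, so depth per sample is unknown.

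The fold enrichment and −log10 p together fix the pileup and local background of a peak under a Poisson model. Both were solved for every peak, and whole-number pileups matched the −log10 p within 0.001. The background of a list was the median of its 1000 lowest local backgrounds, 1.19 for WT and 1.13 for KO. Peaks that overlapped by at least 1 bp formed 1 region. A ratio was log2 of KO over WT pileup per background minus the median over all shared regions, with no pseudocount. The pileup enough for a call in the other list was the smallest called there at a local background within 10%. Genes and sequence were GENCODE M21 and GRCm38.p6, which is the build of the lists. Promoter regions had a summit within 1 kb of a start. Motifs were searched on both strands in 200 bp around the summit, in shared regions that of the list with the higher pileup, from which distances are also given. Python 3.11.15, numpy 2.4.6, pandas 2.3.3 and scipy 1.17.1 were used, and the calculations were tested on simulated data.

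With 1 list per genotype no test was made, and counts stand beside the same counts over all regions or genes. The alternatives were other windows, cuts on q, overlap rules, ratio scales and motif windows. The text names the region at each member's own starts, the Spi1 upstream regions, the 3 strongest distal shared regions of each gene, each shared region past 1.5-fold, the strongest region of each gene in 1 list only, and neighbours whose start holds a region. A few others are named beside these and were chosen after their values were seen. The members and gene lists were chosen with earlier results of these data known. The result of 1 marker list is not reported here.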

Additional observations from a re-analysis of the deposited data

How the results depend on the processing

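No paired analysis was possible because both samples of a genotype name the same list, and for the same reason no sample could be left out. Of the counts of regions, those in both lists went from 57 to 34 at a −log10 q of at least 10. Those in the WT list only went from 19 to 2 at that level, 3 at a −log10 q of at least 5 and 33 when summits had to lie within 100 bp, and those in the KO list only from 27 to 14, 14 and 41. At −log10 q of at least 10 the cut is made in each list, so a region with a weaker peak in the other list counts as 1-list, and over all regions 8.31% were then WT only and 22.4% KO only, against 2 and 14 of 50 at the ETS genes. The median ratio of 0.19 was 0.35 without subtracting the overall median and 0.091 without the regions of Fli1 (an alternative chosen after seeing the data), and 0.12 to 0.23 under the other 3. Without subtracting that median 12 regions in place of 6 were past 1.5-fold higher, and with the authors' fold enrichment and with the cut on q of 10 each 4. Under all 3 of these 1 region in place of 2 was past 1.5-fold lower. Fold enrichment kept 4 of the 8 calls and lost Spib −40.4 kb (0.82 to 0.40), Fli1 150.4 kb (1.00 to 0.45), Etv6 29.5 kb (0.62 to 0.47) and Fli1 35.2 kb (−0.64 to −0.54). For each of the 36 named shared regions the value stayed within its interval under every scale that gave one. Of these regions 12 had no value at a −log10 q of at least 10. Staying within was largely fixed in advance and shows little. The intervals are wide, and every scale except fold enrichment moved all named ratios by the same amount. The number of PU.1 partner genes with more covered bases in KO went from 6 of 10 to 3 of 9 within 10 kb, also an alternative added after seeing the data. Counts of genes with more covered bases, 6 of 9 members, went to 4 with windows of 10 or 100 kb. The Spi1 difference of −2033 bp ranged from −874 bp (10 kb) to −1889 bp (100 kb) under the alternatives. Only 6 of the 57 intervals leave out 0, so most differences under 1.5-fold were not detectable at these pileups.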

Other observations

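The rest of the ETS family was mixed. Of 17 other ETS genes, 11 had a start site peak in both lists, and of 16 with peaks in both lists 9 had more covered bases in KO and 7 fewer, where 48.2% of protein-coding genes had more. Etv5 had the highest ratio of KO to WT bases at 1.48 and Spdef, an epithelial factor with no start peak, the lowest at 0.58 (931 to 543 bp). The largest difference in bases was at Erf, 2511 bp (9468 to 11979), with a start pileup of 29 in WT and 26 in KO. Etv1 differed by −2000 bp (6287 to 4287) with a start pileup of 107 in WT and 96 in KO. Spic, the third relative of PU.1, had 4527 and 4636 covered bases with a start pileup of 12 and 22.

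Genes that act with or on PU.1 were also mixed. Irf8, a partner of PU.1 in monocytes and dendritic cells, had no peak in its window in WT and 2905 bp in KO, with a KO start peak of 20. Protein-coding genes with a peak in either list numbered 18861, and 18271 of them had peaks in both. Gfi1, a repressor that antagonises PU.1, went from 4994 bp (WT) to 2711 bp (KO), with a start peak of 16 in WT only. Cebpa had 5731 and 7458 bp with start pileups of 57 and 58, and Runx1 had 6690 and 6001 bp with 41 and 28. Of 10 such genes with peaks in both lists 6 had more covered bases in KO, 1 past 1.5-fold more (Gata1, 537 to 1160 bp) and 1 past 1.5-fold fewer (Gfi1). Over all protein-coding genes with peaks in both lists these shares were 48.2%, 5.41% and 8.44%.

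Among 18 known PU.1 targets, 17 had peaks in both lists, and 6 of these had more and 11 fewer covered bases in KO, where 48.2% of all genes with peaks in both lists had more. Over those genes 5.41% were past 1.5-fold more and 8.44% past 1.5-fold fewer. Past 1.5-fold were Tyrobp, an adaptor of myeloid receptors (3882 to 7089 bp), and in the other direction the lysozyme gene Lyz2 (1652 to 1043 bp) and the oxidase subunit gene Ncf4 (2959 to 1419 bp). Flt3, a cytokine receptor of lymphoid and myeloid progenitors, had 8522 and 7330 bp and a start pileup of 58 in WT and 36 in KO. The start peak of Il7r, the lymphoid interleukin receptor, was in WT only, at a pileup of 13. Its window nevertheless had slightly more covered bases in KO (636 to 696 bp). Among these targets the start of Fcer1g likewise held a peak in WT alone (pileup 11). The start of Tyrobp went the other way, with a peak in KO alone (pileup 11). All these are single values per genotype.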
